A study of Mus musculus with 8 samples.

Results

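A set of 10 genes that mark tuft cells of the intestine, Dclk1, Trpm5, Pou2f3, Avil, Hpgds, Alox5, Alox5ap, Il25, Gfi1b and Sh2d6, was followed by symbol in RNA-seq tables of the small intestine of Ctrl and Gli1-PtgscKO mice, with 1 table for crypts and 1 for villi. Gli1-PtgscKO mice lose Ptgs1 and Ptgs2, the genes of the cyclooxygenases COX1 and COX2, when tamoxifen activates CreERT2 driven by Gli1, a gene of mesenchymal stromal cells. The sample labels give the Ctrl mice as Gli1-CreERT2; Rosa26-tdTomato animals with a WT genotype entry, whereas the study also describes controls as floxed mice without Cre. Tissue was taken 1 month after tamoxifen from mice on a C57BL/6 background, whose ages the labels do not give, with 2 libraries per genotype and tissue. Of the 10 genes, 5 were listed among the 11554 genes of the crypt table (Dclk1, Trpm5, Pou2f3, Avil and Sh2d6) and 9 among the 12701 genes of the villus table, all but Il25. Ptgs1 was listed in both tables and Ptgs2 in neither.

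Tuft cells are rare chemosensory cells of the epithelium that carry a taste-type signalling cascade ending in the cation channel Trpm5. They make eicosanoids and the cytokine IL-25, which activates type 2 innate lymphoid cells, and the type 2 cytokines of those cells in turn expand the tuft cell population. Tuft cells also express COX1, so that a deletion restricted to Gli1+ mesenchyme leaves Ptgs1 intact in this epithelial cell type. Ptgs1 is therefore given beside the tuft cell genes throughout.

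Pou2f3, the transcription factor without which the lineage does not form, belongs to the POU family, whose members bind the octamer ATGCAAAT. RefSeq promoter sequences (GRCm38.p6) were at hand for 7 of the 10 genes, with 8 start sites, and the 250 bases before each start were searched on both strands for the octamer and for its first 7 letters, ATGCAAA, which every octamer match also contains. The octamer occurred before the RefSeq start of 1 gene, Hpgds, and in 1.601% of all 32851 promoters of the table. The 7 letters occurred before Hpgds and Avil, and in 4.12% of all promoters. The sequences below, 5′ to 3′ on the strand of the gene, are those of the 2 genes with a match and of Trpm5 and Dclk1, which both split the crypt libraries by replicate number. Capitals mark a match to the octamer or its first 7 letters.
Hpgds, chr6:65144886-65144915, minus strand, 30 bases around the octamer: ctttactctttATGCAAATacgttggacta
Avil, chr10:127000459-127000708, plus strand: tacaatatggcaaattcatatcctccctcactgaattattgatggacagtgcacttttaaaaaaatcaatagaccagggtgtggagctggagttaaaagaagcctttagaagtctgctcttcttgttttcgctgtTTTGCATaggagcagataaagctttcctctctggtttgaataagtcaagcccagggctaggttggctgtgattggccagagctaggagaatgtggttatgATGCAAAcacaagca
Trpm5, chr7:143094643-143094892, minus strand: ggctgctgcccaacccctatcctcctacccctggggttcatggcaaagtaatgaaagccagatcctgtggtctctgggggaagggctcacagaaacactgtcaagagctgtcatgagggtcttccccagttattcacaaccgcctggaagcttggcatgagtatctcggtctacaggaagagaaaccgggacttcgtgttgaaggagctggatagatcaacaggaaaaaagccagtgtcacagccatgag
Dclk1, chr3:55242114-55242363, plus strand, the upstream of 2 starts: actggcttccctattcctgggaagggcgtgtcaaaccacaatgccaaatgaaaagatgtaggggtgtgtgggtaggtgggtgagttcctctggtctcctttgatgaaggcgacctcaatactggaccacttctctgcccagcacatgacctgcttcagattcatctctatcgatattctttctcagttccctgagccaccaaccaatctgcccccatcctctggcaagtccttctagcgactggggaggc
The first base of the octamer lay 174 bases before the RefSeq start of Hpgds, which is internal to the gene as GENCODE annotates it, so that the octamer lies inside that longer gene model. In Avil, the 7 letters began 115 bases before the start on the opposite strand and 15 bases before it on the gene's own strand. Such a match is a run of letters and was not tested as a binding site.

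The values are gene counts divided by a size factor per library, here called normalised counts. In crypts, where few low genes are listed and reads could be recovered only by taking the step between values as 1 read, this gives 16853017 to 21121714 reads on listed genes, at 0.9002 to 1.117 normalised counts a read. In villi, 13477600 to 15751024 reads lay on listed genes and 1 read was worth 0.765 to 1.16. The 2 Ctrl villus columns were identical in every gene and were counted as 1 library, so 7 distinct libraries were compared and no test was run in villi. Gli1-PtgscKO crypt replicate 1 stood apart by transcript length. Its difference from the other crypt libraries correlated with length across genes at Spearman's rho of -0.704, against 0.234 to 0.608 for the other 3, and the Ctrl villus library had -0.549 against 0.399 and 0.505. Epithelial markers and all 6 crypt stem cell markers were listed in crypts at summed levels of 146462 to 238469 and 90383 to 101183 normalised counts, and the villus enterocyte markers summed to 213618 to 300637 in villi. The preparations also held other cells, since 10 of 12 mesenchymal markers were listed in each tissue. In bulk RNA, fewer tuft cells and less RNA per tuft cell cannot be told apart.

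In crypts, the question was whether loss of mesenchymal COX moved the tuft cell genes. None of the 5 listed genes passed the study's threshold, an unadjusted p under 0.01 with an absolute log2 fold change over 1. The study applied this threshold to DESeq2 results. It was applied here to limma results, where 0.182% of all genes passed it (21 of 11554). None passed a Benjamini-Hochberg adjusted p under 0.05 in limma, as for all genes (0.0%), of which 73 had an unadjusted p under 0.05. Their median log2 fold change, Gli1-PtgscKO minus Ctrl, was 0.09, beside -0.01 over all genes. An exact permutation test of 2 against 2 libraries cannot give a two-sided p below 0.333. The p-values below come from limma, which sets the genotype difference against a spread between libraries. That spread is drawn from the gene's own libraries and from all genes of like level. The study calls the libraries biological replicates.

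Avil encodes advillin, an actin-binding protein of the tuft cell brush, and lies at chr10:127000709-127020994. Its normalised counts were 187.4 and 277.3 in Ctrl crypts and 379.8 and 403.4 in Gli1-PtgscKO crypts. Both Gli1-PtgscKO libraries lay above both Ctrl libraries, the single separation of the genotypes among the 5 genes. The means were 232.3 ± 63.5 in Ctrl and 391.6 ± 16.7 in Gli1-PtgscKO (SD, n = 2). The log2 fold change was 0.78 (SE 0.33, 95% confidence interval -0.01 to 1.57), with an unadjusted p of 0.053 and an adjusted p of 1.00 in limma with Benjamini-Hochberg adjustment. The difference therefore did not pass the test. Over the other settings tried, its unadjusted limma p ranged from 0.016 to 0.449, the highest without Ctrl replicate 1. Over all crypt genes, 9.73% had both Gli1-PtgscKO libraries above both Ctrl libraries and 11.3% had both below.

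Dclk1 and Trpm5 split by replicate number rather than by genotype. Dclk1, a microtubule-associated kinase and the most used tuft cell marker (chr3:55242364-55539068), stood at 194.9 and 383.5 normalised counts in Ctrl and at 176.3 and 401.2 in Gli1-PtgscKO crypts. Both libraries numbered 2 lay well above both numbered 1, by 1.97 times in Ctrl and 2.28 times in Gli1-PtgscKO. Its log2 fold change between genotypes was -0.04 (SE 0.51, 95% confidence interval -1.27 to 1.19). Trpm5, the channel that depolarises the cell at the end of the taste cascade (chr7:143069153-143094642), stood at 135.9 and 299.8 in Ctrl and at 165.8 and 366.5 in Gli1-PtgscKO crypts. The same order was seen, with replicate 2 over replicate 1 at 2.21 times in both genotypes. Its log2 fold change was 0.29 (SE 0.54, 95% confidence interval -1.004 to 1.58). Both intervals reach past 1 on the log2 scale, so a change of that size lay within the error.

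Sh2d6, an SH2 domain protein enriched in tuft cells (chr6:72513641-72521707), had 102.1 and 129.6 normalised counts in Ctrl and 99.7 and 150.9 in Gli1-PtgscKO crypts. The genotypes overlapped, and the libraries numbered 2 were again the higher ones. The log2 fold change was 0.09 (SE 0.44, 95% confidence interval -0.95 to 1.13). Pou2f3 (chr9:43123939-43210369) was the steadiest of the 5, with 100.3 and 90.0 in Ctrl and 102.8 and 94.98 in Gli1-PtgscKO crypts. Here the genotypes overlapped and the libraries numbered 2 were not the higher ones. Its log2 fold change was 0.06 (SE 0.43, 95% confidence interval -0.97 to 1.08).

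**Figure D1:**
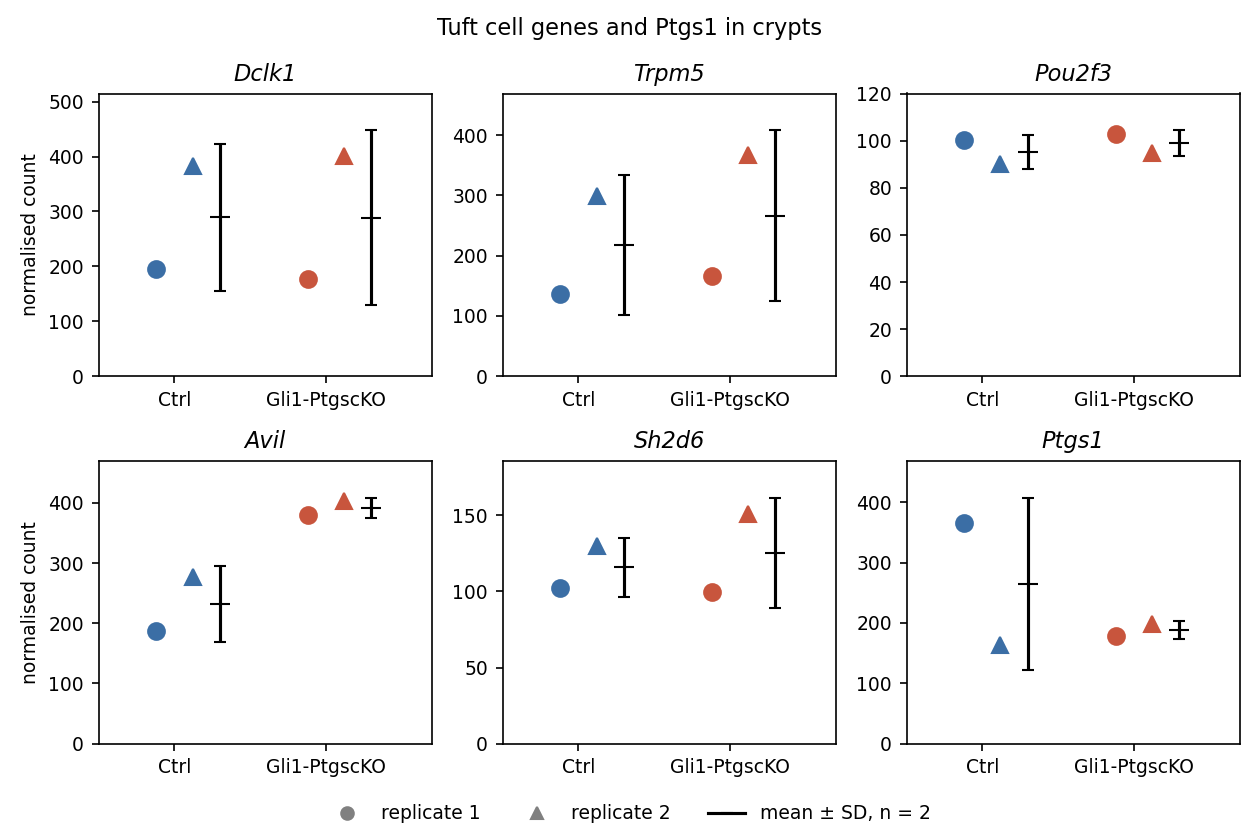
Normalised counts (vertical axes, from 0) of the 5 tuft cell genes of the crypt table and of Ptgs1 in the 4 crypt libraries, with circles for replicate 1, triangles for replicate 2 and black bars for the mean ± SD of 2 libraries. Dclk1, Trpm5 and Sh2d6 are higher in both libraries numbered 2, Avil is higher in both Gli1-PtgscKO libraries, and Pou2f3 stays between 90.0 and 102.8.

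In all, 3 of the 5 genes had both replicate 2 libraries above both replicate 1 libraries, an order that 26.4% of all crypt genes showed. The number marks no shared animal, litter or day in the labels. Genes of other cells shared this order: all 3 listed T cell markers did, with Cd8a, a receptor chain of intraepithelial T cells, at 119.0 and 380.8 in Ctrl and 71.3 and 290.5 in Gli1-PtgscKO crypts, and so did 6 of 8 villus enterocyte markers. The part of these cells in the order of the tuft cell genes was not tested. After a correction for transcript length, the order held for the same 3 genes and for 22.0% of all genes, with Dclk1 at 184.9 and 339.2 in Ctrl and 248.6 and 339.3 in Gli1-PtgscKO, and Trpm5 at 135.0 and 286.5 against 184.3 and 346.7. The correction turned the sign of the genotype difference of Dclk1 to 0.21 and of Sh2d6 to -0.13 on the log2 scale.

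Ptgs1 (chr2:36230426-36252272) showed neither the replicate order of Dclk1, Trpm5 and Sh2d6 nor the genotype separation of Avil in crypts. The normalised counts of Ptgs1 were 365.5 and 163.8 in Ctrl and 178.4 and 198.9 in Gli1-PtgscKO crypts. Ctrl replicate 1 was high and the other 3 were close together, so the genotypes overlapped. The log2 fold change was -0.38 (SE 0.45, 95% confidence interval -1.45 to 0.70), and without Ctrl replicate 1 it was 0.20. The summed markers of mesenchyme, the cell class that carries the deletion, ranked the 4 libraries in the same order, at 17751 and 9639 in Ctrl and 11181 and 15557 in Gli1-PtgscKO crypts. Over the 7 libraries of both tissues, the log2 level of Ptgs1 correlated with the mean of 9 mesenchymal markers at r = 0.840, with that of 5 macrophage markers at -0.613 and with that of the 5 tuft cell genes at 0.042. Against the mean of the other 4, single tuft cell genes ranged from -0.074 for Sh2d6 and 0.173 for Pou2f3 to 0.618 for Dclk1. The value of Ptgs1 lay within that range. These are descriptions over libraries that share tissue and depth.

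A wider list of 42 other tuft cell genes, which holds Ptgs1, was read beside the 10. In crypts, 28 of them were listed and 0 passed the threshold in either direction. Both Gli1-PtgscKO libraries lay above both Ctrl libraries for 4 of the 28, beside 9.73% of all genes, and below for 1, beside 11.3%, and the median log2 fold change was 0.10. The 6 with the highest level per length in Ctrl crypts were Cd24a, a surface glycoprotein, Krt18, a keratin, Atp2a3, a calcium pump, Hepacam2, an adhesion molecule, Il13ra1, a receptor chain for the type 2 cytokine IL-13, and Itpr3, the calcium release channel of the taste cascade. Their log2 fold changes lay between -0.17 and 0.27. In Ctrl crypts, their mean level per length, on the scale given below, ran from 24.9 for Itpr3 to 289.9 for Cd24a. The 5 tuft cell genes ran from 1.94 for Dclk1 to 4.49 for Sh2d6 on that scale. Which cells carry these 6 genes in the preparations was not tested, so their fold changes are not read as those of tuft cells. Krt23, another keratin, named after its values were seen, had 182.7 and 181.8 in Ctrl and 384.0 and 281.6 in Gli1-PtgscKO crypts. Its log2 fold change was 0.85 (SE 0.33), with an unadjusted p of 0.040 and an adjusted p of 1.00 in limma with Benjamini-Hochberg adjustment.

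**Figure D2:**
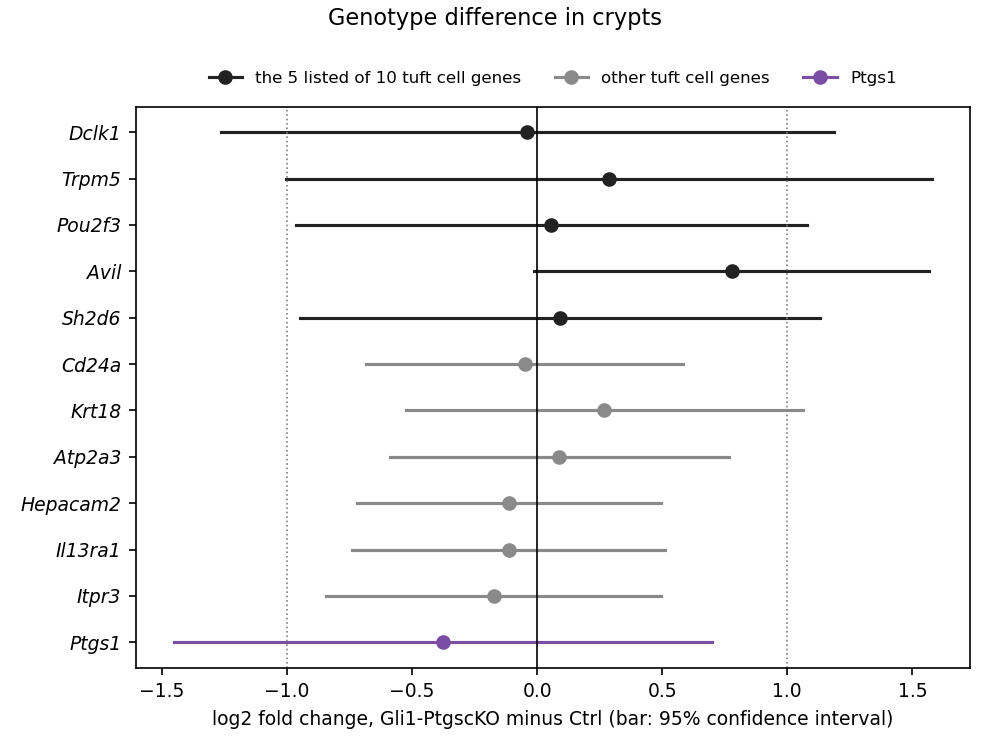
Log2 fold change in crypts, Gli1-PtgscKO minus Ctrl (horizontal axis), with its 95% confidence interval from limma, for the 5 tuft cell genes (black), 6 other tuft cell genes of high level (grey) and Ptgs1 (purple). Dotted lines mark a log2 fold change of 1 in either direction, and every interval drawn includes 0, that of Avil starting at -0.01. Which cells carry the 6 grey genes was not tested.

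The functional groups showed no member past the threshold in crypts. Of 14 genes of taste-type signalling, which hold Trpm5, 6 were listed, with a median log2 fold change of -0.11. Both replicate 2 libraries lay above both replicate 1 libraries for 5 of the 6, beside 26.4% of all genes. Of 17 genes of leukotriene and prostaglandin synthesis, 7 were listed, with a median of 0.13. Of 13 genes of tuft cell transcription, 8 were listed, with a median of 0.14, and of 15 genes of the circuit with type 2 lymphoid cells, 5 were listed, with a median of 0.24. Hpgds, Alox5, Alox5ap, Il25 and Gfi1b were not listed in the crypt table, whose lowest mean over libraries was 48.4 normalised counts, so no level can be given for them there.

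In villi, 5 of the 9 listed tuft cell genes were higher than Ctrl in both Gli1-PtgscKO libraries (Sh2d6, Pou2f3, Hpgds, Dclk1 and Trpm5), 1 was lower in both (Alox5ap), and 3 had the Ctrl value in between. Over all villus genes, 43.7% were above Ctrl in both and 44.2% below, and the counts of the tuft cell genes are read against these shares. The median log2 difference of the 9 genes was 0.52, at 0.05 for replicate 1 and 0.95 for replicate 2, beside -0.01 over all genes. Past a log2 difference of 1 with both libraries on that side were Pou2f3 and Hpgds on the higher side, where 13.4% of all genes lay, and Alox5ap on the lower side, where 9.4% lay. Corrected for transcript length, 3 of the 9 genes were above Ctrl in both (Sh2d6, Pou2f3 and Hpgds), beside 41.2% of all genes. These 3 were then past the fold, beside 9.10% of all genes on that side. Alox5ap was still the 1 gene past the fold on the lower side, beside 4.70% of all genes. Dclk1 and Trpm5 had the Ctrl value in between, and the median log2 difference of the 9 genes was 0.29. With a single Ctrl library the Ctrl level has no replicate check, and no p-value was computed. The counting intervals below are exact 95% Poisson intervals of the reads, scaled to normalised counts, and cover counting error only.

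Pou2f3 stood at 10.4 normalised counts in Ctrl villi and at 22.9 and 40.6 in Gli1-PtgscKO villi, a log2 difference of 1.47. The Ctrl value rested on 9 reads, with a counting interval of 4.77 to 19.8 normalised counts, against 15.5 to 32.7 and 29.2 to 54.8. The interval of replicate 2 lay above that of Ctrl, and that of replicate 1 overlapped it. Gfi1b, a transcriptional repressor of the same lineage (chr2:28609450-28621982), stood at 13.9 in Ctrl and at 6.9 and 15.5 in Gli1-PtgscKO villi. These values rested on 12, 9 and 16 reads, whose intervals overlapped, and the Ctrl value lay in between.

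Hpgds, the haematopoietic prostaglandin D synthase that makes PGD2 from the product of COX (chr6:65117293-65144908), stood at 16.2 normalised counts in Ctrl and at 37.5 and 41.5 in Gli1-PtgscKO villi. The 2 Gli1-PtgscKO libraries were close together and the log2 difference was 1.23. The Ctrl value rested on 14 reads, with a counting interval of 8.87 to 27.2, below those of 27.7 to 49.5 and 30.1 to 55.9. Alox5, 5-lipoxygenase, which starts leukotriene synthesis (chr6:116410077-116461178), stood at 67.2 in Ctrl and at 45.9 and 93.7 in Gli1-PtgscKO villi, with the Ctrl value in between and counting intervals that overlapped that of Ctrl. Alox5ap, the protein that presents arachidonic acid to 5-lipoxygenase (chr5:149264767-149288153), stood at 45.2 in Ctrl and at 16.8 and 11.6 in Gli1-PtgscKO villi. It was the single gene of the 9 that was lower in both libraries, with a log2 difference of -1.62. Its Ctrl counting interval of 32.1 to 61.8 lay above those of 10.5 to 25.5 and 5.99 to 20.2. Corrected for transcript length, Alox5ap stood at 34.0 in Ctrl and at 19.9 and 13.1 in Gli1-PtgscKO villi. Its log2 difference was then -1.03, and it was -1.21 with scaling by library size alone.

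Alox5, Alox5ap and Hpgds are also expressed by macrophages and mast cells. Of 12 macrophage markers, all listed in villi, 10 were lower than Ctrl in both Gli1-PtgscKO libraries, beside 44.2% of all genes. Past the fold on that side were 8, beside 9.4% of all genes. The markers had a summed level of 7667 in Ctrl and 3155 and 4090 in Gli1-PtgscKO villi. Among them were Lyz2, lysozyme, at 4132 against 1869 and 2171, C1qa, a complement subunit, at 603.5 against 106.3 and 245.3, and Csf1r, the receptor for macrophage growth factor, at 535.2 against 204.9 and 254.0. Alox5ap moved with these markers and Hpgds did not, and their part in either was not tested. None of the marker counts and levels given here was corrected for transcript length. The Ctrl villus library differed from the others by length, at Spearman's rho of -0.549, and the part of length in these values was not tested. Of 11 mast cell markers, 4 were listed, with a summed level of 245.6 in Ctrl against 308.9 and 293.6. The mucosal mast cell proteases Mcpt1, at 118.2 against 93.3 and 68.6, and Mcpt2, at 47.5 against 37.5 and 23.2, were lower in both Gli1-PtgscKO libraries. Kit, the stem cell factor receptor, stood at 64.9 against 142.2 and 168.1. Hdc, the histamine synthesising enzyme, stood at 15.1 against 35.9 and 33.8. Both were past the fold on the higher side, the side of Hpgds, where 13.4% of all genes lay. In Ctrl crypts, the mean of Kit was 944.4 normalised counts, beside 63.4 for Mcpt1 and 48.4 for Mcpt2. Which cells carry Kit in these preparations was not tested. Of 5 eosinophil markers, 1 was listed, Siglecf, which tuft cells also express. Of the 8 listed T cell markers, 6 were lower in both, beside 44.2% of all genes.

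Sh2d6 had the highest count of the 9 genes in Gli1-PtgscKO villi, with 198.1 normalised counts in Ctrl and 325.7 and 428.8 in Gli1-PtgscKO. Its log2 difference was 0.91, and its Ctrl counting interval of 169.5 to 230.1 lay below those of 295.5 to 358.2 and 389.9 to 470.6. Trpm5 stood at 201.6 in Ctrl and at 213.3 and 390.2 in Gli1-PtgscKO, a log2 difference of 0.52. Dclk1 stood at 70.7 in Ctrl and at 73.4 and 196.1 in Gli1-PtgscKO, a log2 difference of 0.76. For both, replicate 1 lay close to Ctrl and replicate 2 apart, so the difference rested on 1 library. Corrected for transcript length, Dclk1 stood at 103.7 in Ctrl, between 59.1 and 165.7, and its log2 difference turned to -0.07. Trpm5 then stood at 223.1 in Ctrl, between 199.6 and 374.3, with a log2 difference of 0.29. Avil stood at 121.6 in Ctrl and at 116.2 and 198.0 in Gli1-PtgscKO, with a log2 difference of 0.32 and the Ctrl value in between.

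**Figure D3:**
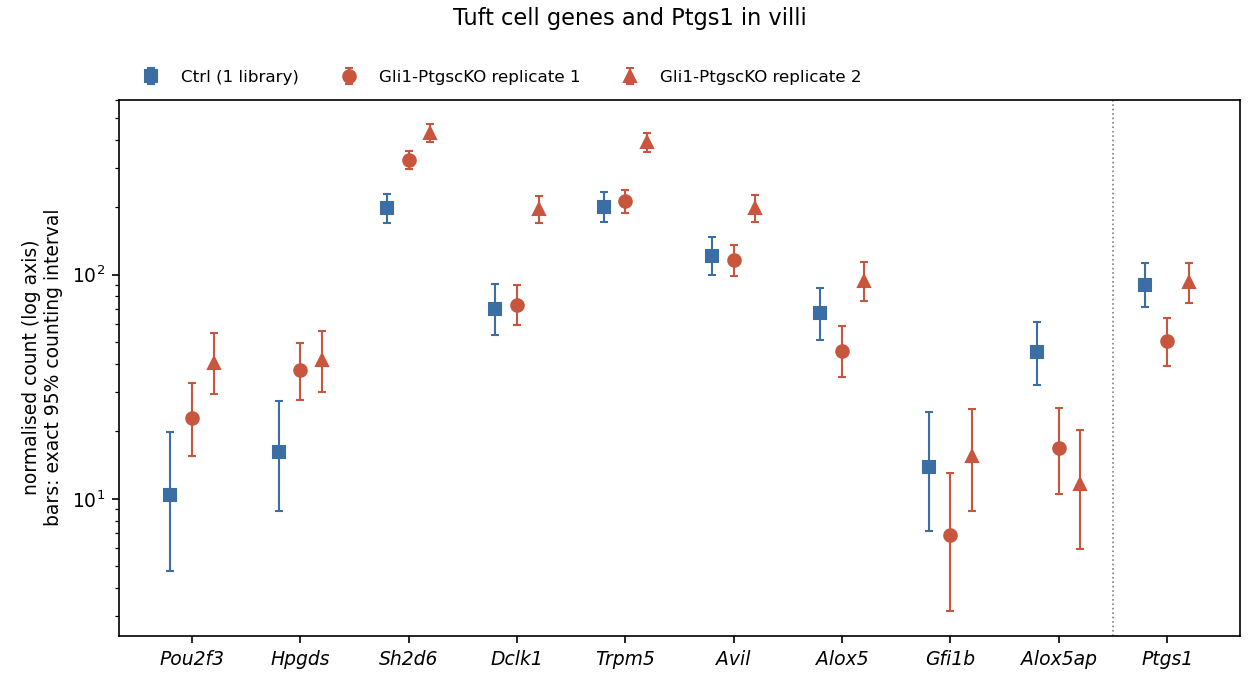
Normalised counts (vertical log axis) of the 9 tuft cell genes of the villus table and of Ptgs1 in the 3 distinct villus libraries, ordered by log2 difference, with exact 95% counting intervals as bars. Both Gli1-PtgscKO points of Pou2f3, Hpgds and Sh2d6 lie above the Ctrl interval, those of Alox5ap lie below the Ctrl point, and Dclk1, Trpm5 and Avil have replicate 1 near Ctrl and replicate 2 above it.

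Replicate 2 was the higher Gli1-PtgscKO library for 8 of the 9 genes, as for 50.4% of all villus genes, by 1.11 to 2.67 times, Alox5ap being the exception at 0.689. Ptgs1 showed the same split, at 90.4 in Ctrl and at 50.5 and 92.7 in Gli1-PtgscKO villi. The Ctrl value of Ptgs1 lay in between, and its log2 difference was -0.40. Scaling by library size alone moved the median log2 difference of all villus genes to 0.42 and that of the 9 tuft cell genes to 0.95. Such a scaling shifts all genes of a library alike. Under that scaling 4 of the 9 were past the fold on the higher side, with Dclk1 and Sh2d6 added, and Alox5ap on the lower side, against 25.3% and 2.33% of all genes.

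Of the 42 other tuft cell genes, 36 were listed in villi. Above Ctrl in both Gli1-PtgscKO libraries were 18, beside 43.7% of all genes, and below were 8, beside 44.2%. Their median log2 difference was 0.14, at 0.03 for replicate 1 and 0.53 for replicate 2. Past the fold were 5 on the higher side, Il17rb, Nrep, Chat, Plcb2 and Pik3cg, named after their values were seen, and 0 on the lower side. These 5 of 36 are a share near the 13.4% of all villus genes. Il17rb, a subunit of the IL-25 receptor, had 9.3 normalised counts in Ctrl and 47.4 and 48.3 in Gli1-PtgscKO villi, a log2 difference of 2.25. Chat, the acetylcholine synthesising enzyme, had 5.8 against 13.0 and 15.5. Plcb2, the phospholipase of the taste cascade, had 56.8 against 97.9 and 149.7.

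The counts of the functional groups in villi stand beside 43.7% of all genes above Ctrl in both and 44.2% below. Past the fold lay 13.4% of all genes on the higher side and 9.4% on the lower side. None of these counts was corrected for transcript length. Taste-type signalling had 9 of 14 genes listed in villi, 5 above and 1 below Ctrl in both, with a median log2 difference of 0.21. The 2 past the fold were Plcb2 and Tas1r3, a taste receptor subunit, at 4.6 against 13.8 and 14.5. Leukotriene and prostaglandin synthesis had 13 of 17 listed, 5 above and 6 below, with a median of -0.25. Past the fold on the higher side were Hpgds and Pla2g4a, the phospholipase that frees arachidonic acid, at 18.5 against 56.6 and 61.8, and on the lower side were Alox5ap, Ptges and Ptges2. Ptges and Ptges2 encode PGE2 synthases and stood at 32.4 against 7.6 and 11.6, and at 2095.5 against 760.7 and 694.5. Tuft cell transcription had 10 of 13 listed, 5 above and 1 below, and a median of 0.35, with Pou2f3 alone past the fold. The 1 below was 1810046K07Rik, also named Pou2af2, at 166.8 against 87.9 and 108.2. The circuit with type 2 lymphoid cells had 7 of 15 listed, 3 above and 4 below, with a median of -0.36, Il17rb past the fold on the higher side and Arg1, arginase, on the lower side at 513.2 against 173.6 and 197.0.

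**Figure D4:**
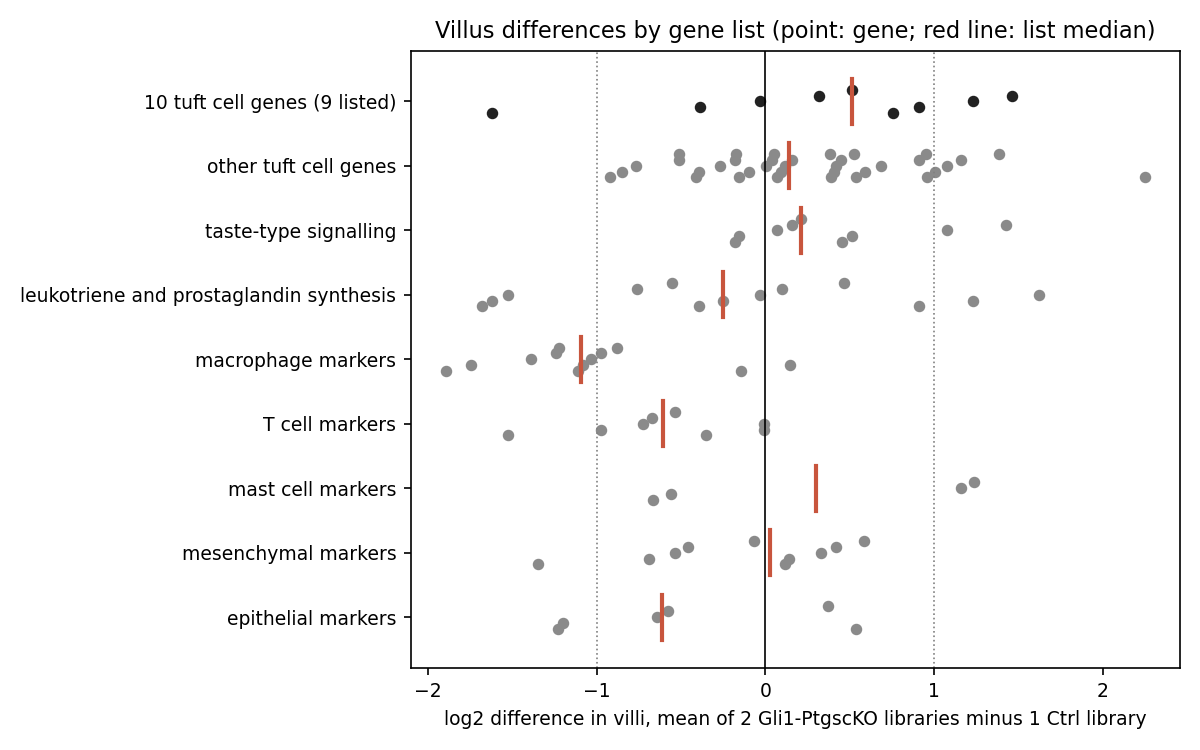
Log2 difference in villi, mean of 2 Gli1-PtgscKO libraries minus 1 Ctrl library (horizontal axis), of every listed gene (points) by gene list, with the list median as a red line and dotted lines at 1 in either direction. The 9 tuft cell genes have a median of 0.52, the 36 other tuft cell genes 0.14 and the 12 macrophage markers -1.10. Values are not corrected for transcript length.

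Markers of neighbouring epithelial cells differed between the villus libraries too. Of 6 crypt stem cell markers, 4 were above Ctrl in both Gli1-PtgscKO libraries, where 43.7% of all genes lay, with a summed level of 2742 in Ctrl and 4682 and 3688 in Gli1-PtgscKO villi. Of 6 enteroendocrine markers, cells that also express Trpm5, 4 were above and 1 below, beside 43.7% and 44.2% of all genes. Their median log2 difference was 0.56. Of the 6 general epithelial markers, 4 were below Ctrl in both, beside 44.2% of all genes, and 2 of these were past the fold, beside 9.4%. Their summed level was 184113 in Ctrl and 108251 and 108058 in Gli1-PtgscKO villi. Of 8 villus enterocyte markers, 3 were below and 1 above, with a summed level of 300637 in Ctrl and 263612 and 213618 in Gli1-PtgscKO villi. Neuron and glia markers, for cells that also express Dclk1, were listed for 1 of 9 genes, Snap25, at 12.7 against 54.3 and 20.3. The mesenchymal markers summed to 2043 in Ctrl and to 2236 and 1940 in Gli1-PtgscKO villi. The part of these cells in the tuft cell genes was not tested. These counts and sums were not corrected for transcript length, by which the Ctrl villus library differed at Spearman's rho of -0.549. How far length rather than cell content set them was not tested.

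Between tissues, the 5 tuft cell genes of both tables did not share a direction. Levels were set across the tables as counts scaled to a sum of 1000000 per library (CPM) over the 11227 genes of both, since the tables were normalised separately, and were not tested. Pou2f3 was lower in the Ctrl villus library than in both Ctrl crypt libraries, at 0.619 CPM against 5.47 and 4.74. Dclk1 was lower too, at 4.20 against 10.6 and 20.2, and so was Avil, at 7.22 against 10.2 and 14.6. The median gene of both tables was itself lower in Ctrl villi, by a log2 difference of -1.06. The log2 differences of Pou2f3 and Dclk1, at -1.91 and -1.60, lay below that median, while Avil, at -0.69, fell less than the median gene. Sh2d6 was higher in the Ctrl villus library, at 11.8 against 5.58 and 6.83, and Trpm5 lay between the Ctrl crypt libraries, at 11.97 against 7.42 and 15.8. The same sides were seen for Pou2f3, Avil and Sh2d6 between Gli1-PtgscKO villi and Gli1-PtgscKO crypts, while Dclk1 overlapped. Ptgs1 was lower in Ctrl villi, at 5.37 against 19.9 and 8.63, a log2 difference of -1.16, near that of the median gene. The median log2 difference of the 5 genes, Ctrl villi minus Ctrl crypts, was -0.69, beside -1.06 over all genes of both tables. After the correction for transcript length these were 0.45 and -0.03, so the sign of the tuft cell median turned while it stayed above that of all genes.

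Per length, as CPM per kilobase of the longest coding transcript, the order of the 5 genes in Ctrl crypts was Sh2d6 (4.49 ± 0.641, SD, n = 2), Avil (4.09 ± 1.02), Trpm5 (2.81 ± 1.44), Pou2f3 (1.96 ± 0.198) and Dclk1 (1.94 ± 0.849). Each of these neighbours overlapped within its spread. Ptgs1 stood at 4.98 ± 2.79 on the same scale. In Ctrl villi the order was Sh2d6 at 8.52, Trpm5 at 2.90, Avil at 2.38, Dclk1 at 0.527 and Pou2f3 at 0.237, with Ptgs1 at 1.87. In Gli1-PtgscKO villi, Sh2d6 at 21.8 ± 3.04 stood apart from Trpm5 at 5.81 ± 2.11. Over all genes of the villus table, Alox5ap, Alox5, Gfi1b and Hpgds stood at 2.14, 1.41, 0.452 and 0.276 in the Ctrl library.

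**Figure D5:**
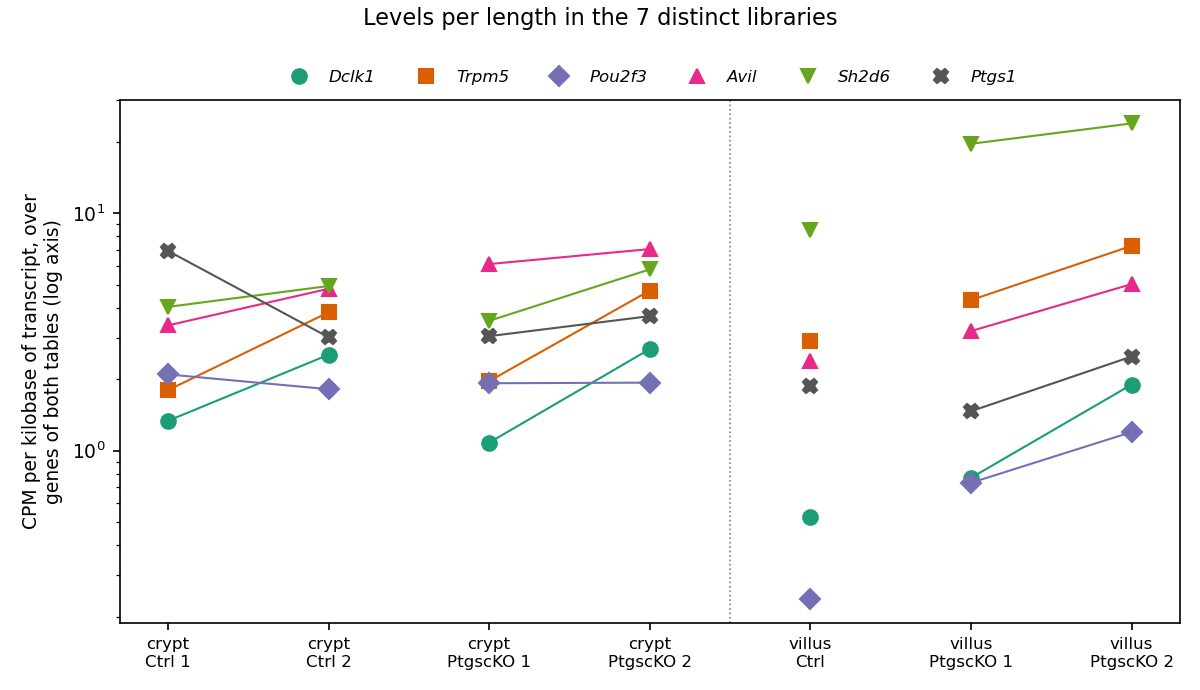
CPM per kilobase of transcript over genes of both tables (vertical log axis) in each of the 7 distinct libraries for the 5 tuft cell genes of both tables and Ptgs1, with lines joining libraries of 1 group. Sh2d6 is the highest gene in all 3 villus libraries, and Pou2f3 is lower in the 3 villus libraries, at 0.237 to 1.20, than in the 4 crypt libraries, at 1.82 to 2.10.

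The likeness of the tuft cell genes to each other was uneven over the 7 libraries. The log2 level of a gene correlated with the mean of the other 4 at r = 0.618 for Dclk1, 0.613 for Trpm5, 0.554 for Avil, 0.173 for Pou2f3 and -0.074 for Sh2d6. The genes outside the 10 whose levels followed the mean of the 5 most closely were Samd9l (r = 0.954), Fcho1 (0.939), Mfhas1 (0.934), Epb41l1 (0.929) and Slc17a4 (0.929). Of 11222 genes compared, 14 had an r of at least 0.9, or 0.125%. These correlations describe 7 libraries that share tissue, replicate order and depth, and none of the 42 other tuft cell genes is among the 5.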

How the data were processed

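RNA-seq of 8 mouse samples was read from 1 table per tissue. The authors deposited gene values that are a signal, counts divided by a size factor per library, with no raw counts beside them. Per the labels and the study's methods, reads were aligned to mm10 with STAR and analysed with DESeq2. The counting tool, its use of strand and the annotation are not given in the sources used here, and the labels and methods name different RNA and library kits. The deposited tables also hold the authors' own comparison (fold changes and p-values), which was not used. All values (100%) were whole multiples of 1 step per library within 0.01 of a step. For crypts, too few low values were listed to accept the step as 1 read, and no count test was run.

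Genotypes were compared in crypts with limma 3.58.1 (R 4.3.3, trended variance) on log2(value + 1) over all genes with a mean of at least 1, without a block, with Benjamini-Hochberg adjustment. Fold changes on this scale understate those of low genes. The limma step was tested on simulated data. Villi were described by the mean log2(value + 1) of the Gli1-PtgscKO libraries minus that of the single Ctrl library. Transcript length was that of the longest protein-coding transcript (GENCODE, GRCm38), and the length correction subtracted a lowess curve (span 0.3) from each library. Likeness was Pearson's r on log2(CPM + 1). Python 3.11.15 was used for the rest.

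The 10 genes and 16 gene lists were chosen with earlier results of these data known. Named were the 10 genes, Ptgs1 and Ptgs2, the 6 other tuft cell genes of highest level per length in Ctrl crypts, listed genes past the crypt threshold, up to 3 markers of highest mean per list, and the 5 genes of closest likeness. Where a count was 5 or fewer, its genes were also named, after their values were seen, as were Krt23, Cd8a, Mcpt1, Mcpt2, Kit, Hdc, C1qa and Csf1r and the values of Pla2g4a, Arg1 and 1810046K07Rik. Alternatives were a replicate block, library-size scaling, quantile normalisation, other filters, a pseudocount of 0.1, the length correction and leaving out each replicate.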

Additional observations from a re-analysis of the deposited data

How the results depend on the processing

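No tuft cell gene passed the crypt threshold under any of the 12 alternatives run. The crypt median stayed between -0.21 and 0.55 and the villus median between 0.05 and 0.95. The tissue median, -0.69 beside -1.06 over all genes, became 0.45 beside -0.03 with the length correction. In crypts, 14 of 72 alternative values for single genes had the opposite sign. Pou2f3 became -0.016 with library-size scaling, and Dclk1 became 0.21 and Sh2d6 -0.13 with the length correction, with or without a replicate block. Leaving out 1 library gave ranges of -0.63 to 0.55 for Dclk1, -0.28 to 0.86 for Trpm5, 0.50 to 1.06 for Avil, -0.021 to 0.13 for Pou2f3, -0.21 to 0.39 for Sh2d6 and -0.95 to 0.20 for Ptgs1. In villi, 5 of 45 such values moved by more than the spread between libraries, none turning sign among the genes past the fold. Other genes did turn sign in villi. Dclk1 became -0.07 with the length correction, and Avil became -0.07 without Gli1-PtgscKO villus replicate 2. With library-size scaling, Alox5 turned from -0.03 to 0.39 and Gfi1b from -0.39 to 0.01. The cause was not tested.

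The replicate numbers are not known to pair the samples. Deviations from the group means correlated at 0.247 between same-numbered libraries, with 2 pairs. With a replicate block, the crypt median stayed at 0.09 and 0 tuft cell genes passed, while Avil had an unadjusted limma p of 0.037. Over all genes, the block raised the calls from 20 higher and 1 lower to 63 and 15, and those at an adjusted p under 0.05 from 0 to 34. With both the block and the length correction, these were 25 and 5, and 0. Without Gli1-PtgscKO crypt replicate 2, 593 and 288 genes passed the threshold and 1987 the adjusted p, and without Ctrl crypt replicate 2, 4 passed the adjusted p. In these fits the lone library is assumed to vary like the other group. Quantile normalisation and the block with length correction were added after seeing the data. DESeq2, edgeR and TMM scaling were planned for crypts and not run. With 2 libraries per group, the 95% confidence interval of each listed tuft cell gene in crypts reached past 1 on the log2 scale. An unadjusted limma p under 0.01 asks for a larger difference than such an interval does. Differences over 1 could therefore be missed as well as smaller ones. The villus values rest on 1 Ctrl library.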
